A study of Rattus norvegicus with 3 samples.

Results

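The rat genome holds a pair of insulin genes, Ins1 and Ins2, and their transcripts were followed in 3 RNA sequencing libraries of INS-1 832/13 cells. The members are the gene models ENSRNOG00000012052 (Ins1) and ENSRNOG00000020405 (Ins2), 2 of 34340 gene models listed. They were taken by these IDs, with no limit on their values, although earlier results of these data were known when the genes were chosen. INS-1 832/13 is 1 clone of a rat insulinoma line that secretes insulin in response to glucose and is used in place of primary beta cells. The cells overexpressed NIK, NIK(KA) or β-Gal, with 1 library for each protein. NIK is NF-κB-inducing kinase, the kinase that starts the non-canonical NF-κB pathway. NIK(KA) is not explained in the labels; the name is commonly given to a lysine-to-alanine mutant without kinase activity. β-Gal, β-galactosidase, is a protein often overexpressed as a control. The sources used here do not give the vector, the length of the expression or the number of cultures.

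Insulin is made by beta cells as preproinsulin, which is cut to proinsulin and then, in secretory granules, to insulin and C-peptide. Ins2 is the ancestral gene in rat and mouse, whereas Ins1 is a retroposed copy that lacks one of its introns but kept the promoter. Transcription of both genes is driven by short elements close to the start: A-boxes, bound by the homeodomain factor Pdx1, E-boxes, bound by Neurod1 with a ubiquitous partner, and the C1 element, bound by Mafa. A cyclic AMP response element (CRE) is bound by factors of the CREB family. INS-1 832/13 was made by introducing a human proinsulin gene into INS-1 cells, and whether reads from that gene entered the rat gene models was not tested.

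The promoters of both genes are shown because they are alike. Whether they bear on the levels of the genes was not tested. They are the 250 bases before each start as RefSeq gives them for the build GRCr8, written 5′ to 3′ on the strand of the gene, and both genes were found by symbol in that table. Ins1 lies on the plus strand, with its window at chr1:261185869-261186118, and Ins2 on the minus strand, with its window at chr1:207273806-207274055. Capitals mark matches, on either strand, to the core letters of 4 elements. The E-box was searched as CATCTG. For the A-box, the letters searched were TAAT. The core of the CRE was taken to be TGACG, and the TATA box was searched as TATAAA.
Ins1: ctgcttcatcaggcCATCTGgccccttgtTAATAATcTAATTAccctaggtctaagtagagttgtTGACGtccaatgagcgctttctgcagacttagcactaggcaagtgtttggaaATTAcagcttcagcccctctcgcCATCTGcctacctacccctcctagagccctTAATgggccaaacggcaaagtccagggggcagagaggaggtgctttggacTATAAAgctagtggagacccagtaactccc
Ins2: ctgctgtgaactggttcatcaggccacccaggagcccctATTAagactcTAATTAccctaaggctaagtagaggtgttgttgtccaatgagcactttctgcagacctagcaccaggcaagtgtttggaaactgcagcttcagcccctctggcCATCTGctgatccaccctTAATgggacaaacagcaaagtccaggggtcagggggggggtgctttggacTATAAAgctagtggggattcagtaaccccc

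Aligned with gaps at the ends left free, the windows shared 204 of 238 aligned bases (85.7%), where bases set against a gap are not counted. The longest identical run, ggtgctttggactataaagctagtgg, spans 26 bases from 42 to 17 bases before the start of both genes and holds the TATA box. The run cagcttcagcccctct, 16 bases long, lies 129 to 114 bases before the start of Ins1 and 117 to 102 bases before that of Ins2. It lies in the stretch known in the rat promoters as the C1 element. The run tctaattacccta, 13 bases long, holds a pair of overlapping A-box matches in both genes.

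Ins1 had 2 E-box matches, beginning 236 and 110 bases before the start, and Ins2 had 1, beginning 98 bases before it. Of 33469 rat promoter windows of the same length, 14.0% held at least 1 CATCTG and 1.20% held at least 2. A-box matches numbered 6 in Ins1 and 4 in Ins2, where overlapping matches and both strands of TAATTA were counted separately, and 57.0% of all windows held at least 1. At least 6 such matches occurred in 3.34% of windows and at least 4 in 10.8%. E-boxes and A-boxes are elements already known in the insulin promoters, so matches were likely beforehand and these shares are not a test. The CRE core was matched once in Ins1, beginning 185 bases before the start, and had no match in Ins2, while 18.2% of windows held it. TATAAA began 30 bases before the start of both genes and was held by 12.9% of windows. The κB consensus, the sequence recognised by NF-κB dimers, had 0 matches in either window and at least 1 match in 3.54% of all windows. A missing match says only that those letters are not in these 250 bases.

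**Figure D1:**
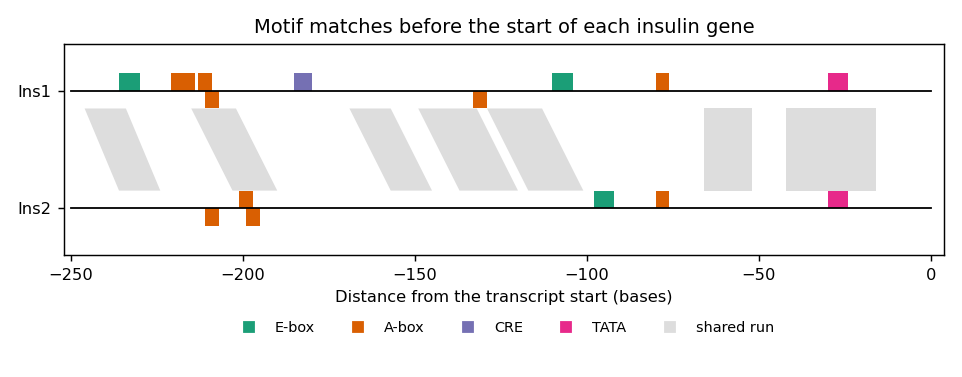
Motif matches in the 250 bases before the transcript start of Ins1 (upper line) and Ins2 (lower line), against the distance from the start in bases. Blocks above a line are matches on the strand of the gene and blocks below it matches on the other strand, and grey areas join identical runs of at least 12 bases. The TATA box and the A-box nearest the start have the same position in both genes, whereas the farther E-box and the CRE core are matched in Ins1 only.

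Levels are FPKM, reads per unit of gene model length, scaled to a total of reads for each library, as deposited by the authors. Which reads that total covers was not checked. The total was 15095979 reads for NIK, 14349721 for NIK(KA) and 17457498 for β-Gal, as worked out from the steps of the FPKM values. Of the gene models, 19839, 20039 and 19199 were above 0 in the same order. With 1 library per protein there is no replicate error and no test of a difference between conditions, so each difference below is between 2 libraries, and the protein, the culture and the library preparation cannot be told apart. The 95% intervals are exact, take in counting error alone and treat PCR copies of 1 molecule as separate reads. The files list IDs without gene symbols, so the gene of NIK and beta-cell markers other than insulin were not checked.

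Ins1 was among the 6 highest gene models of all 3 libraries. Its level was 2860 FPKM in NIK (19210 reads, 95% interval 2819 to 2900), 4931 FPKM in NIK(KA) (31485 reads, 4876 to 4985) and 8321 FPKM in β-Gal (64646 reads, 8257 to 8386). The NIK library was thus lowest and the β-Gal library highest, and the counting intervals do not overlap. Ins1 ranked 6 in NIK, 4 in NIK(KA) and 1 in β-Gal. It made up 0.478% of the summed FPKM in NIK, 0.816% in NIK(KA) and 1.37% in β-Gal. In RNA from bulk cells, fewer cells with insulin transcripts and fewer transcripts per cell cannot be told apart.

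Ins2 was read in every library but at a far lower level. It had 20.1 FPKM in NIK (135 reads, 16.8 to 23.7), 38.8 FPKM in NIK(KA) (248 reads, 34.1 to 43.9) and 54.6 FPKM in β-Gal (425 reads, 49.5 to 60.0). The order of the libraries was the one seen for Ins1, again with counting intervals that do not overlap. Reads of Ins1 counted for Ins2 would follow that order too, and how many there were was not tested. The order of Ins2 is therefore not taken as separate from that of Ins1. Ins2 ranked 5331 in NIK, 3064 in NIK(KA) and 2070 in β-Gal. It was higher than or equal to 73.1% of the gene models above 0 in NIK, 84.7% in NIK(KA) and 89.2% in β-Gal.

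**Figure D2:**
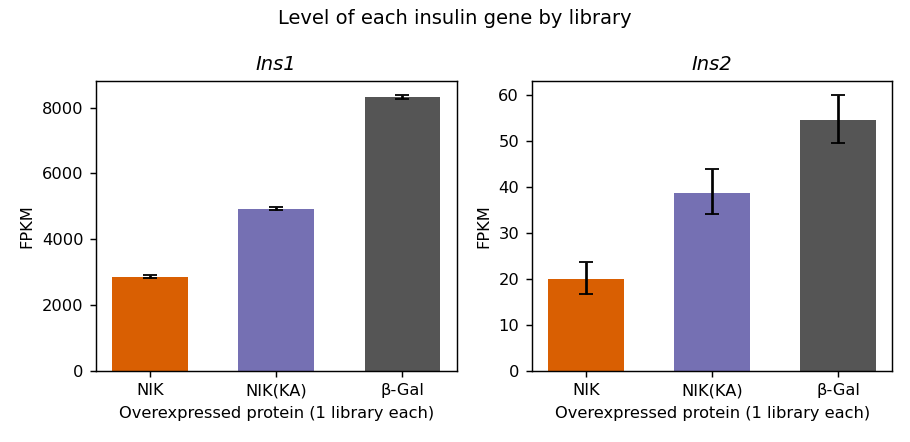
Level of Ins1 (left) and Ins2 (right) in FPKM for cells overexpressing NIK, NIK(KA) or β-Gal, 1 library each. Bars are the deposited values and error bars exact 95% intervals for counting error only. Both genes are lowest in NIK and highest in β-Gal, where Ins1 has 8321 FPKM and Ins2 54.6 FPKM, on separate axes.

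The first comparison asked how the insulin genes stood when NIK was overexpressed. Ins1 in NIK was at 34.4% of its β-Gal level, a log2 ratio of -1.54 (95% counting interval -1.56 to -1.52). Ins2 in NIK was at 36.7% of its β-Gal level, a log2 ratio of -1.44 (-1.74 to -1.16). Both genes were thus at least 2-fold lower, as were 458 of 11171 gene models compared (4.10%), these being the ones with at least 5 FPKM in a library and the fold being taken on log2(FPKM + 1). The median log2 ratio of all models compared was 0.02 on that scale. Models with a ratio as low as that of Ins1 or lower made up 1.28% of them, and models as low as Ins2 or lower 1.72%. The ratio of Ins2 divided by that of Ins1 was 1.07 (0.874 to 1.30, conditional exact interval), an interval that includes 1. The split of reads between the genes is uncertain, so nothing is concluded on a difference between them.

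The second comparison set NIK(KA) against the same β-Gal library. Ins1 in NIK(KA) was at 59.3% of its β-Gal level, a log2 ratio of -0.76 (-0.77 to -0.74). Ins2 in NIK(KA) was at 71.0% of its β-Gal level, a log2 ratio of -0.49 (-0.73 to -0.26). Neither gene was 2-fold lower here, and 1.95% of the gene models compared were. Models as low as Ins1 or lower made up 4.47% of the models compared, and models as low as Ins2 or lower 11.2%. The ratio of Ins2 divided by that of Ins1 was 1.20 (1.02 to 1.41), an interval that leaves out 1 by a small margin. It is not adjusted for the 3 comparisons made, and the split of reads between the genes is uncertain. A difference between the genes is therefore not concluded. This comparison and the first share the β-Gal library.

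The third comparison set NIK against NIK(KA). Ins1 in NIK was at 58.0% of its NIK(KA) level, a log2 ratio of -0.79 (-0.81 to -0.76). Ins2 in NIK was at 51.7% of its NIK(KA) level, a log2 ratio of -0.95 (-1.26 to -0.64). Neither reached a 2-fold difference, and 2.11% of the gene models compared were at least 2-fold lower. The median log2 ratio of all models was itself -0.12, and with the median of models of at least 5 FPKM in every library set to 0 the log2 ratios became -0.67 for Ins1 and -0.83 for Ins2. Models as low as Ins1 or lower made up 4.34% of the models compared, and models as low as Ins2 or lower 2.72%. The ratio of Ins2 divided by that of Ins1 was 0.892 (0.717 to 1.11), an interval that includes 1.

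**Figure D3:**
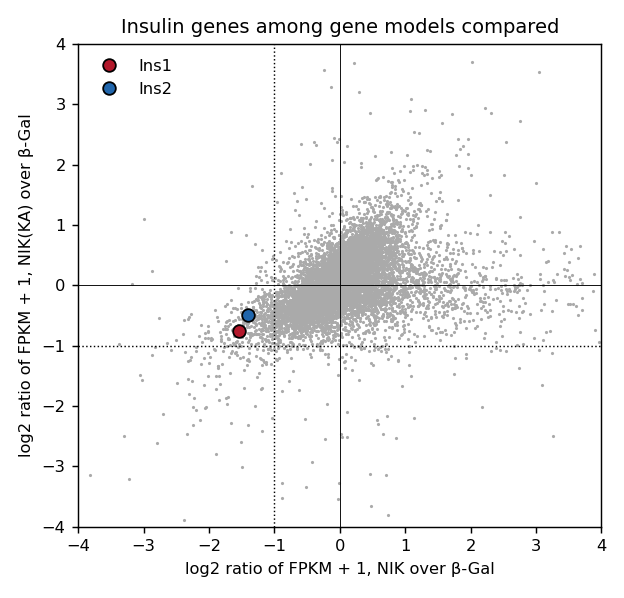
Log2 ratios of FPKM + 1 for the gene models compared (grey points), NIK over β-Gal on the x axis and NIK(KA) over β-Gal on the y axis, with Ins1 and Ins2 in colour. Dotted lines mark 2-fold lower, and 39 models lie outside the axes. Both insulin genes lie left of the vertical dotted line and above the horizontal one; the axes share the β-Gal library, so the slant of the cloud is not a result.

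The order NIK below NIK(KA) below β-Gal, shown by both insulin genes, was found in 2483 of the 11171 gene models compared (22.2%). Among the 458 models at least 2-fold below β-Gal in NIK it was found in 400 (87.3%). These models, which include both insulin genes, were picked for a wide gap between NIK and β-Gal, so an NIK(KA) value in between is likely for them from the choice itself, and nothing is read from this share.

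Ins1 was set beside the other abundant transcripts. In β-Gal, 70 other gene models reached 1000 FPKM, and their log2 ratios of NIK to β-Gal had a median of -0.06 with quartiles at -0.34 and 0.13, whereas that of Ins1 was -1.54. Of these 70 models, 3 were at least 2-fold lower in NIK and 2 had a lower ratio than Ins1. Set NIK(KA) over β-Gal, the same models had a median of 0.04 with quartiles at -0.16 and 0.15, and 5 of them had a lower ratio than the -0.76 of Ins1. For NIK over NIK(KA) the median was -0.07, and 2 models lay below the -0.79 of Ins1. These counts describe the libraries and are not tests.

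The gene models above Ins1 were the same in part across libraries. In NIK, 5 models were above it, at 3592 to 6821 FPKM. In NIK(KA), 3 of those 5 were above it, at 4981 to 7290 FPKM. In β-Gal the model closest below Ins1 had 8062 FPKM and was the highest of both other libraries, with 6821 FPKM in NIK and 7290 FPKM in NIK(KA). The lower rank of Ins1 in NIK thus came with lower levels of all 5 models above it, which had 4449 to 8062 FPKM in β-Gal.

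**Figure D4:**
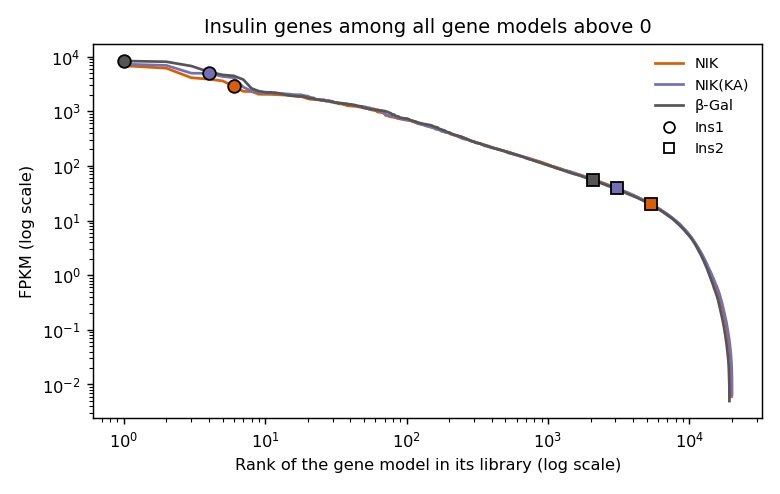
FPKM against rank for all gene models above 0 in each library, both on log scales, with Ins1 as circles and Ins2 as squares. The curves of the 3 libraries nearly coincide over most ranks; Ins1 lies at ranks 6, 4 and 1 and Ins2 at ranks 5331, 3064 and 2070 in NIK, NIK(KA) and β-Gal.

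Ins2 was set beside the 3163 gene models within 2-fold of its β-Gal level, from 27.3 to 109 FPKM there, and above 0 in every library. Set NIK over β-Gal, their log2 ratios had a median of -0.03 with quartiles at -0.32 and 0.25, and 58 of them (1.83%) lay below the -1.44 of Ins2. For NIK(KA) over β-Gal the median was -0.01 (quartiles -0.28 and 0.26), and 401 (12.7%) lay below the -0.49 of Ins2. For NIK over NIK(KA) the median was -0.11 (quartiles -0.29 and 0.13), and 41 (1.30%) lay below the -0.95 of Ins2. Against models near its β-Gal level, Ins2 thus stood further out in both comparisons with the NIK library than in NIK(KA) over β-Gal. Those comparisons share the same NIK value of Ins2, and the models were matched on the β-Gal level only.

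Within each library, Ins1 exceeded Ins2 by more than 100-fold per length. The FPKM of Ins1 was 143 times that of Ins2 in NIK (95% counting interval 120 to 170), 127 times in NIK(KA) (112 to 145) and 152 times in β-Gal (139 to 168). The scaling of a library does not enter this ratio. Ins2 took 0.698% of the reads of both genes in NIK (0.585 to 0.825, Clopper-Pearson), 0.782% in NIK(KA) (0.688 to 0.885) and 0.653% in β-Gal (0.593 to 0.718). The share was highest in NIK(KA), and the interval of the NIK share covers the shares of both other libraries. The genes are close copies, and the sources used here do not say how reads that match both were counted, so the split between Ins1 and Ins2 is uncertain in every library.

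**Figure D5:**
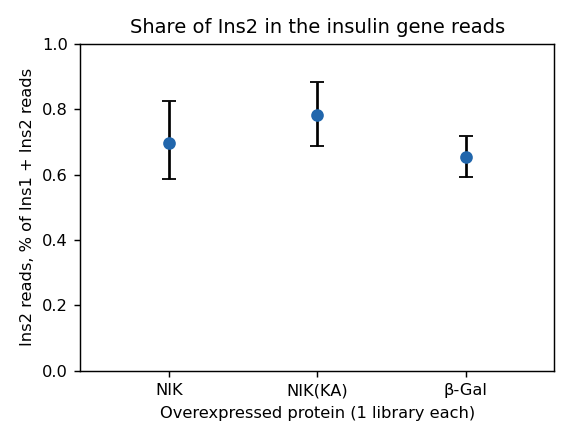
Share of Ins2 in the reads of both insulin genes, in percent, for the NIK, NIK(KA) and β-Gal libraries. Points are the shares and bars exact 95% binomial intervals for counting error only. All 3 shares lie under 1%, between 0.653% in β-Gal and 0.782% in NIK(KA).

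Summing the genes removes the effect of assigning a read to one gene or the other, but not that of dropping reads that match both, which was not tested. Ins1 and Ins2 together had 19345 reads in NIK, 31733 in NIK(KA) and 65071 in β-Gal, which is 0.128%, 0.221% and 0.373% of the library totals. The sum in NIK was at 34.4% of that in β-Gal (33.8 to 34.9), the sum in NIK(KA) at 59.3% of that in β-Gal (58.5 to 60.1) and the sum in NIK at 57.9% of that in NIK(KA) (56.9 to 59.0). Ins1 provided 99.3% of these reads in NIK, 99.2% in NIK(KA) and 99.3% in β-Gal, so the sum follows Ins1. In summed FPKM the insulin genes stood at 2880 in NIK, 4969 in NIK(KA) and 8376 in β-Gal.

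Gene models with a pattern like that of each insulin gene were looked for. Likeness was the distance between the pairs of log2 ratios of NIK and of NIK(KA) to β-Gal, over 3 libraries and 4586 gene models of at least 20 FPKM in every library. That minimum removes models that are low in NIK, Ins2 itself passing at 20.1 FPKM there, so the counts leave out models of like pattern and lower level. Within a distance of 0.2 lay 12 models for Ins1 (0.262%) and 11 for Ins2 (0.240%). The model nearest to Ins1, at a distance of 0.07, had 23.7 FPKM in NIK, 43.4 in NIK(KA) and 71.8 in β-Gal. The next nearest was more abundant, with 198 FPKM in NIK, 314 in NIK(KA) and 555 in β-Gal. The model nearest to Ins2, at a distance of 0.04, had 65.5 FPKM in NIK, 122 in NIK(KA) and 173 in β-Gal. The insulin genes lay 0.28 apart, and each was the 22nd nearest model to the other. Counting error is not in these distances. For Ins2 it spans log2 ratios of -1.74 to -1.16 for NIK and -0.73 to -0.26 for NIK(KA) over β-Gal. That is wide beside the distances, so the places of the nearest models are uncertain. These models are not paired with gene names, and with 3 libraries a like pattern is only a description.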

How the data were processed

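RNA of 3 libraries, 1 per overexpressed protein, was profiled, and groups were taken from the sample titles. The authors deposited 1 FPKM value per gene model and library. Per the submitters' processing notes the tools included TopHat2 and HTSeq 0.6.1 and the build was the mouse build GRCm38, although 32883 of the IDs are rat Ensembl IDs, so no coordinates of the gene models are given. The sources used here do not give strandedness, filters or the handling of reads that match several places.

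Whole read numbers were worked out as the lowest that give the FPKM values of all 3 libraries with 1 length, of at most 100000 bases and within 1e-06 reads, which was possible for all 22026 gene models above 0. The method was tested on simulated data. The numbers are lower limits, adding up to 95.9% of the total in NIK, 95.9% in NIK(KA) and 96.1% in β-Gal, which by itself widens the intervals slightly. PCR copies and the spread between cultures are not in the intervals, which are too narrow in that respect. The lengths found were 445 bases for Ins1 and 446 bases for Ins2.

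Intervals of levels are exact Poisson, those of ratios and shares Clopper-Pearson on the split of reads, and those of ratios of ratios conditional exact. Ratios of the insulin genes use no pseudocount, and counts of gene models use log2(FPKM + 1). Promoters were aligned globally with free end gaps in Biopython 1.88 (match 2, mismatch -1, gap opening -5, gap extension -1). Other steps used Python 3.11.15, SciPy 1.17.1 and matplotlib 3.10.9.

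The pairing of the 2 IDs with Ins1 and Ins2 came with the choice of the genes, since the reference table, of 47357 genes, gives an Ensembl ID for 0 of them. Lists of beta-cell, secretory and stress genes by symbol could not be matched and were not run. The rule for named genes took the insulin genes, the most abundant genes of each list, the gene of NIK, the models of most like pattern and the neighbours in rank. Without symbols only the 2 insulin genes are named, and like patterns are given by their values. The members and lists were chosen with earlier results of these data known. The limits of 1000 FPKM, of 2-fold around the level of Ins2 and of 0.2 in distance, the summed reads and the promoter motifs were chosen after values were seen.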

Additional observations from a re-analysis of the deposited data

How the results depend on the processing

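No paired analysis was possible because each protein has 1 library, and no replicate could be left out. Of 42 alternative log2 ratios of the insulin genes, 0 changed direction and 37 stayed within the counting interval. Ins1 and Ins2 stayed at least 2-fold below β-Gal in NIK under each of the 7 alternatives (log2 ratios of -1.58 to -1.52 for Ins1 and -1.49 to -1.25 for Ins2), and neither reached 2-fold in the other comparisons. For Ins1, an equal upper quartile gave -1.58 in NIK over β-Gal and -0.81 in NIK(KA) over β-Gal. Equal sums without the 100 highest models gave -1.57 in NIK over β-Gal. The median set to 0 gave -0.80 in NIK(KA) over β-Gal and -0.67 in NIK over NIK(KA), a shift of 0.12. Library totals without the insulin genes and a gene model with reads mostly in β-Gal, chosen after seeing the data, moved no ratio of either gene beyond its interval. A pseudocount of 5 lowered the Ins1 to Ins2 ratio to 114 in NIK, since it is large beside the 20.1 FPKM of Ins2. Ranks among Ensembl gene models alone stayed within 1.5 times for both genes.

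Counts of all gene models moved with the settings. In the order NIK over β-Gal, NIK(KA) over β-Gal and NIK over NIK(KA), a pseudocount of 5 gave 215, 93 and 57 models at least 2-fold lower. A minimum of 1 FPKM gave 705, 372 and 556, and one of 20 FPKM gave 216, 119 and 78. At 1.5-fold there were 1282, 885 and 989, past which Ins1 lies in all 3 comparisons and Ins2 in both comparisons with the NIK library but not in NIK(KA) over β-Gal. At 3-fold, past which neither insulin gene lies, there were 129, 71 and 55. Equal sums (TPM) gave 400 in NIK over NIK(KA). The minimum of 5 and the pseudocount of 1 were kept on the TPM scale, where values are larger, so both were in effect lower. That count thus does not show the scaling alone. The other 11 of 27 counts stayed within 1.5 times. The counts of gene lists at 1.5-fold were not run, as no list could be matched. Ins2 had 135 reads in NIK, which gives the interval of 16.8 to 23.7 FPKM there from counting alone.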
